A study of Mus musculus with 11 samples.

Results

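The genes described here are 10 genes of the elastic fiber and its microfibrils: *Eln*, *Fbn1*, *Fbn2*, *Fbln1*, *Fbln2*, *Fbln5*, *Efemp1*, *Efemp2*, *Mfap4* and *Mfap5*. They were taken by symbol from the 24062 genes listed for each library. All 10 passed the filter on low counts in every comparison. RNA-seq was carried out on mesenchymal cells that had been collected from mouse lungs at embryonic day 15 by their rapid attachment to culture plastic and then passaged. The labels name 4 Sp3+/+ (WT), 4 Sp3+/- and 3 Sp3-/- libraries, and the study asked how loss of the transcription factor Sp3 changes gene expression in these cells. The genotypes came from matings of heterozygous mice, no cell type specific driver was named, and no library was labelled as treated. The sources used here do not say whether libraries of a genotype came from separate embryos, so p-values measure the spread between these libraries, which may be technical.

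Elastic fibers give the lung its recoil and are laid down largely before and shortly after birth by mesenchymal cells such as myofibroblasts and smooth muscle cells. Tropoelastin, the product of *Eln*, is deposited on a scaffold of microfibrils whose main component is fibrillin. Fibulins link tropoelastin to the scaffold and to lysyl oxidases, the enzymes that cross-link it into elastin. Sp3 is a zinc finger protein that binds GC-rich DNA and can raise or lower transcription.

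Reads counted on genes numbered 9849111 to 59297495 per library, with a median of 34968482 over the 11 libraries. Levels of single libraries are given as log2 CPM (counts scaled to library size on a log2 scale, with TMM scaling over all 11 libraries and a prior count of 2). *Sp3* measured 5.94 to 6.75 log2 CPM in WT, 5.71 to 6.15 in Sp3+/- and 3.89 to 4.23 in Sp3-/- libraries, so the deleted gene was lowest in the libraries labelled Sp3-/-. Mesenchymal markers summed to 7212 to 22060 CPM, whereas endothelial markers summed to at most 127 CPM and epithelial markers to at most 156 CPM. Macrophage markers summed to 359 to 11139 CPM. In Sp3-/- library 697-5 their sum of 10553 CPM exceeded that of the mesenchymal markers, 7212 CPM. In bulk RNA, fewer cells of a type and less RNA per cell cannot be told apart. Library titles end in no suffix, 2 or 3, which the sources do not explain. None of the 3 Sp3-/- libraries carries a suffix, and neither do WT library 468-4 and Sp3+/- library 697-4 in their titles, although the file of 697-4 carries a 2. The other 6 libraries with *Sp3* carry one. Genotype and suffix are therefore nearly confounded, and for the 10 genes the comparison of Sp3-/- with WT cells is given with and without the suffix in the model. The model used the titles, so 697-4 counted as having no suffix, and the other coding was not run. Library 468-3 alone has suffix 2, so it adds nothing to the genotype estimates there. Those estimates rest on 468-4 and 697-4 as the only libraries with *Sp3* and no suffix.

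Per kilobase of exon, *Fbln2* was the most abundant of the 10 transcripts in every library. It reached 663 ± 131 CPM per kb in WT (SD, n = 4), 642 ± 137 in Sp3+/- (SD, n = 4) and 290 ± 123 in Sp3-/- cells (SD, n = 3). Fibulin-2 is a matrix protein of basement membranes, microfibrils and vessel walls. In WT cells *Fbn1* (139 ± 54.2 CPM per kb), *Fbln5* (129 ± 43.2) and *Eln* (88.4 ± 74.0) followed, and these neighbours differed by less than their spread. *Efemp1* (63.1 ± 15.8) and *Efemp2* (49.4 ± 3.69) came next, again within their spread. *Mfap4* (12.9 ± 14.0), *Fbn2* (6.08 ± 3.64), *Mfap5* (5.18 ± 1.04) and *Fbln1* (4.33 ± 2.49) formed a lower group in which the ranges overlapped. The order was the same in Sp3+/- cells down to *Fbln5*, after which *Efemp1* (66.0 ± 10.1) stood beside *Eln* (63.5 ± 36.6), with overlapping ranges. In Sp3-/- cells *Efemp1* (65.7 ± 24.9) came directly after *Fbln2*, while *Eln* (2.60 ± 2.36) stood below *Mfap5* (3.63 ± 2.18), and the range of *Eln* overlapped those of its neighbours *Mfap5* and *Fbn2*. The plot of levels per length shows this order in each genotype.

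**Figure D1:**
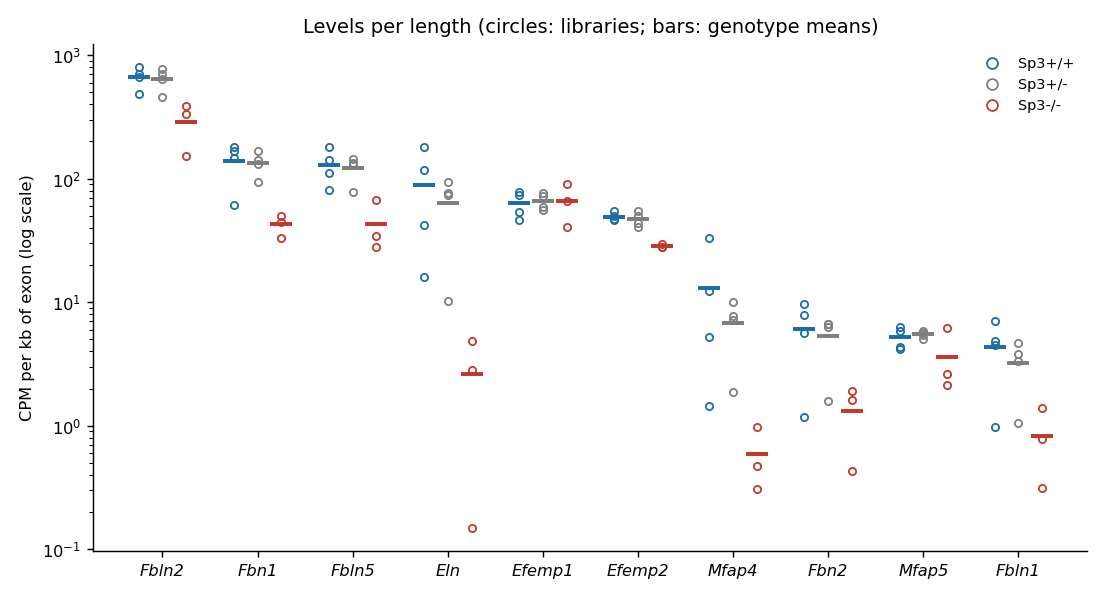
Level of each gene in CPM per kilobase of exon (log axis), ordered by the WT mean. Circles are libraries (4 WT, 4 Sp3+/-, 3 Sp3-/-) and bars are genotype means. *Fbln2* is highest throughout, *Eln* falls from 88.4 in WT to 2.60 in Sp3-/- cells, and *Efemp1* stays between 63.1 and 66.0.

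Reads on the 10 genes made up 0.560% to 1.15% of all gene reads in WT, 0.551% to 0.947% in Sp3+/- and 0.227% to 0.406% in Sp3-/- libraries. The Sp3-/- range lay below both others. *Eln* supplied 2.37% to 12.9% of these reads in WT but 0.0537% to 1.02% in Sp3-/- libraries. *Fbn1* supplied at least 13.3% in every WT library and 13.8% to 17.7% in Sp3-/- libraries, which overlapped.

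Promoter sequences were looked up because Sp3 binds GC boxes. No sequence was found for *Eln*, *Fbn2*, *Mfap4* or *Mfap5*, so the largest called changes, *Eln* and *Mfap4*, are missing here. Those of 4 genes are shown. They are *Efemp2*, the smallest but most even of the called changes, *Fbn1* and *Fbln5*, which were also called, and *Efemp1*, which was not. Each is a RefSeq window on GRCm38.p6 from 250 bases before to 50 after a transcript start, written 5′ to 3′ along the gene, with every GC box (GGGCGG or its reverse complement CCGCCC, overlapping copies counted separately) in capitals. *Efemp2* lies on the plus strand at chr19:5474485-5474784, *Fbn1* on the minus strand at chr2:125506389-125506688, *Fbln5* on the minus strand at chr12:101819070-101819369 and *Efemp1* on the plus strand at chr11:28852955-28853254.
Efemp2: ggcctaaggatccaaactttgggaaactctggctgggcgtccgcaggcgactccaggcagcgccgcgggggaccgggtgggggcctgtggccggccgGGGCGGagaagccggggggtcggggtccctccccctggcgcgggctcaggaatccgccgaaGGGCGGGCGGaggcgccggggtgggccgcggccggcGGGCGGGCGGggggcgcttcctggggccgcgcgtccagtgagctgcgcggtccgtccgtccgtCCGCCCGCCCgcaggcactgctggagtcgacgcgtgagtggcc
Fbn1: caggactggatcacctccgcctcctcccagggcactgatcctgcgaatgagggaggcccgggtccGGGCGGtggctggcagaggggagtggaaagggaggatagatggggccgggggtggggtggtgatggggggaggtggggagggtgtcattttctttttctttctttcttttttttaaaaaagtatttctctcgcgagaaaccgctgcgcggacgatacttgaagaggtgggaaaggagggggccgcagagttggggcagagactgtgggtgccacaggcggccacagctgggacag
Fbln5: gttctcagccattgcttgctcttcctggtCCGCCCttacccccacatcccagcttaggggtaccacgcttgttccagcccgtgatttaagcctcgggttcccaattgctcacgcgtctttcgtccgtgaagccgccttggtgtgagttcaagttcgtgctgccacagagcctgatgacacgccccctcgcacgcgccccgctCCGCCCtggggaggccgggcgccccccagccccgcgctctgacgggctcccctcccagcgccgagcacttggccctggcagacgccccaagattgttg
Efemp1: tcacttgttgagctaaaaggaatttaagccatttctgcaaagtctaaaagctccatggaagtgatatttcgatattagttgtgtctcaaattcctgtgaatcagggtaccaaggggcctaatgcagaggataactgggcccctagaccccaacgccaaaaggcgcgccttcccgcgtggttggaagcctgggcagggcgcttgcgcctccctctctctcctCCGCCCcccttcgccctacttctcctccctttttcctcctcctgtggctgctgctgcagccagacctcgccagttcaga
The *Efemp2* window shown, the one with the most GC boxes among its starts, holds 7 and is 78.3% G and C. The other *Efemp2* starts hold 5 and 2, and the window with 5 overlaps the one shown, so its 5 are among the 7. The windows of *Fbn1* and *Efemp1* hold 1 each and the *Fbln5* window shown holds 2. Of the 10 windows found for 6 of the 10 genes, 8 held a GC box, *Fbln2* with 2 and a second *Fbln1* start with 2, while 1 start each of *Fbln1* and *Fbln5* held none. The windows of the *Fbln1* starts also overlap, so the 10 windows are not separate. Over all 32851 windows of this length, 35.7% held at least 1 GC box. Counted by gene, each of the 6 genes had a GC box in at least 1 window, as did 38.2% of all genes with a window. The GT box GGTGTGG, searched on both strands, was in 7.58% of all windows and in none of the 10. These matches describe letters only, and *Efemp1*, which was not called, and *Fbn1*, which fell, had the same number.

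The main comparison asks how these genes differ between Sp3-/- and WT cells. *Eln*, *Mfap4*, *Fbn1*, *Fbln5* and *Efemp2* were lower in Sp3-/- cells, by 33.0-fold, 20.3-fold, 3.26-fold, 2.99-fold and 1.72-fold. Those 5 of 10 genes had an adjusted p below 0.05, whereas 18.5% of the 14025 genes tested did in either direction and 9.77% did with a lower level. No member was called higher. Levels of 6 of the 10 were lower in all 3 Sp3-/- than in all 4 WT libraries, against 16.7% of all genes. The median log2 fold change was -1.64 over the 10 genes and -0.0032 over all genes tested. Tests were edgeR's quasi-likelihood test on the 7 libraries with Benjamini-Hochberg adjustment over all genes. The suffix limits these calls. With all 11 libraries in the fit and no suffix term, 7 of the 10 were called (28.1% of all genes). Adding the suffix as a covariate to that fit left only *Efemp2* called. Of all genes, 9.41% were then called in either direction and 5.8% with a lower level. Leaving out single libraries of the 7 also moved the count. It was 8 without WT 468-4 (29.9% of all genes called), 3 without Sp3-/- 685-1 (16%) and 2 without Sp3-/- 697-5 (10.1%). It was 1 when WT 685-2, 697-1, 697-3 or Sp3-/- 697-2 was left out (2.01% to 6.39%). The plot of levels by library shows every value.

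**Figure D2:**
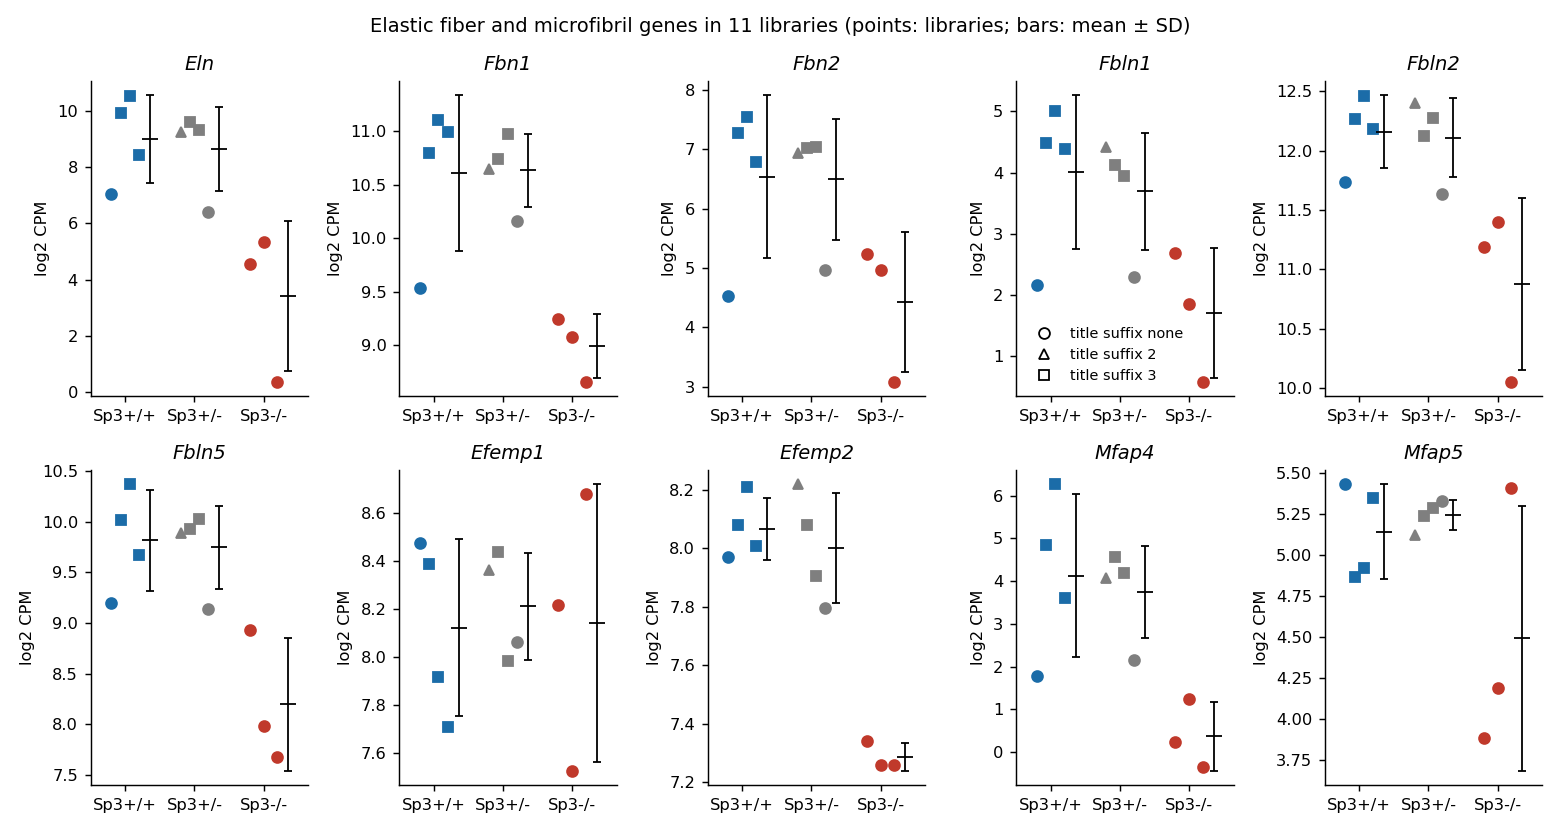
Log2 CPM of each gene in each library, by genotype, with the symbol giving the suffix of the library title (circle none, triangle 2, square 3). Black bars are mean ± SD (n = 4, 4 and 3), and the vertical scale differs between panels. In 7 panels the circles of WT (468-4) and Sp3+/- (697-4) lie below all other libraries of those genotypes, and in *Efemp2* the 3 Sp3-/- libraries at 7.26 to 7.34 lie apart from all others.

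*Eln* (chromosome 5, 134702595 to 134747368 on GRCm38.p6) encodes tropoelastin, the precursor of the elastic core. Its levels were 7.04, 9.91, 10.53 and 8.44 log2 CPM in WT libraries 468-4, 685-2, 697-1 and 697-3. They were 4.54, 5.33 and 0.37 in Sp3-/- libraries 685-1, 697-2 and 697-5. All 3 Sp3-/- libraries were below the lowest WT library, and 697-5 was far below the other Sp3-/- libraries, with 12 reads in the smallest library of the series. This gave a log2 fold change of -5.04 (SE 1.27, adjusted p = 0.0357, edgeR). It was -2.48 (adjusted p = 0.125, edgeR) with the suffix covariate and without single libraries it was called in 1 of 7 cases, when 468-4 was left out. RefSeq places *Gm30003* over *Eln*, and whether counting used strand is not given in the sources used here, so reads of the pair cannot be told apart.

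*Fbn1* (chromosome 2, 125300594 to 125506485) encodes fibrillin-1, the main microfibril protein. WT library 468-4 measured 9.54 log2 CPM and the other 3 WT libraries 10.79 to 11.11, and Sp3-/- libraries 685-1, 697-2 and 697-5 measured 9.24, 9.08 and 8.66. The genotypes did not overlap, but 468-4 stood closer to the Sp3-/- libraries than to the other WT libraries. The fitted log2 fold change was -1.71 (SE 0.38, adjusted p = 0.0266, edgeR), and -0.80 (adjusted p = 0.0755, edgeR) with the suffix covariate.

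*Fbn2* (chromosome 18, 58008623 to 58210572) encodes fibrillin-2, the fibrillin of early development. It measured 4.54, 7.28, 7.55 and 6.79 log2 CPM in the WT libraries in the order above and 5.23, 4.98 and 3.08 in the Sp3-/- libraries. WT library 468-4 was below 2 of the 3 Sp3-/- libraries, so the genotypes overlapped. The log2 fold change of -2.18 (SE 0.76) had an adjusted p of 0.0797 in edgeR's test and was -0.05 (adjusted p = 0.961, edgeR) with the suffix covariate. *Gm41741* overlaps *Fbn2* in RefSeq, with the same limit on strand.

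Among the fibulins that bind tropoelastin, *Fbln5* (chromosome 12, 101746565 to 101819119) is needed in mice for organised elastic fibers. It measured 9.20, 10.02, 10.37 and 9.68 log2 CPM in WT libraries 468-4, 685-2, 697-1 and 697-3. Sp3-/- libraries 685-1, 697-2 and 697-5 measured 8.93, 7.98 and 7.68, without overlap. Its log2 fold change was -1.58 (SE 0.38, adjusted p = 0.0327, edgeR) and -0.90 (adjusted p = 0.144, edgeR) with the suffix covariate.

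*Efemp2* (chromosome 19, 5473946 to 5482520) encodes fibulin-4, which brings lysyl oxidase to tropoelastin. Its WT libraries measured 7.97, 8.08, 8.21 and 8.01 log2 CPM and its Sp3-/- libraries 7.34, 7.26 and 7.26. Libraries of a genotype were close together and the genotypes were well apart, with 468-4 beside the other WT libraries. The log2 fold change was -0.78 (SE 0.09, adjusted p = 0.00764, edgeR). It was -0.66 (adjusted p = 0.00927, edgeR) with the suffix covariate, and *Efemp2* was the only member that stayed called whichever of the 7 libraries was left out. Its GC-rich promoter window is shown above.

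*Fbln2* (chromosome 6, 91212460 to 91272540) measured 11.74, 12.27, 12.46 and 12.18 log2 CPM in WT and 11.19, 11.40 and 10.05 in Sp3-/- libraries. The genotypes did not overlap, and 697-5 was the lowest library. Its log2 fold change of -1.19 (SE 0.34) had an adjusted p of 0.0505, just outside the threshold of edgeR's test, and was -0.75 (adjusted p = 0.196, edgeR) with the suffix covariate. *Fbln1* (chromosome 15, 85205949 to 85286294) encodes fibulin-1, a fibulin of basement membranes and elastic tissue. It was low, at 2.17, 4.48, 5.00 and 4.38 log2 CPM in WT and 2.68, 1.85 and 0.58 in Sp3-/- libraries, with 468-4 among the Sp3-/- values. Its log2 fold change of -2.33 (SE 0.71) had an adjusted p of 0.0583 in edgeR's test and was -0.42 (adjusted p = 0.608, edgeR) with the suffix covariate.

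*Efemp1* (chromosome 11, 28853154 to 28926743) encodes fibulin-3, another short fibulin. It measured 8.48, 8.39, 7.92 and 7.71 log2 CPM in WT and 8.22, 7.53 and 8.68 in Sp3-/- libraries. The Sp3-/- libraries held both the lowest and the highest value of the 7, so its spread covered that of WT. The log2 fold change was 0.06 (SE 0.29, adjusted p = 0.897, edgeR), with a 95% interval from -0.62 to 0.74. A fall as large as that of *Efemp2* (-0.78) lies outside that interval. With the suffix in the model the value was -0.0626 (adjusted p = 0.925, edgeR).

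The microfibril-associated proteins differed from each other. *Mfap4* (chromosome 11, 61485431 to 61488708) encodes a fibrinogen-related protein that binds fibrillin and tropoelastin. It measured 1.79, 4.85, 6.27 and 3.62 log2 CPM in WT and 0.24, 1.24 and -0.35 in Sp3-/- libraries. The genotypes did not overlap, although WT libraries spread over 4.48 log2 units and Sp3-/- libraries held only 40, 104 and 7 reads. Its log2 fold change was -4.34 (SE 1.12, adjusted p = 0.0378, edgeR) and -1.67 (adjusted p = 0.232, edgeR) with the suffix covariate. *Mfap4* was not called by limma-voom (-3.33, adjusted p = 0.256), and of the 7 libraries only leaving out 468-4 kept its call. *Mfap5* (chromosome 6, 122513584 to 122529290) encodes MAGP2, a small protein that binds fibrillin. Its levels were 5.43, 4.87, 4.92 and 5.35 log2 CPM in WT and 3.88, 4.19 and 5.41 in Sp3-/- libraries. Library 697-5, the lowest of all 11 for *Eln*, *Fbn1*, *Fbn2* and *Mfap4* among others, was near the top of the WT range here. The log2 fold change was -0.53 (SE 0.37, adjusted p = 0.333, edgeR), -0.72 (adjusted p = 0.281, edgeR) with the suffix covariate and -1.12 (adjusted p = 0.0323, edgeR) without 697-5.

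The next comparison asks whether loss of a single copy of *Sp3* moved these genes. None of the 10 was called in Sp3+/- against WT cells. Of the 14130 genes tested with edgeR, 0% were called and 1.74% had an unadjusted p below 0.05, and DESeq2 and limma-voom also called 0 genes. The 10 genes' median log2 fold change was -0.08 and no member separated the genotypes, beside 0.814% of all genes that were lower and 0.594% that were higher without overlap. *Sp3* itself had a log2 fold change of -0.49 (SE 0.16, unadjusted p = 0.0131, edgeR).

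*Eln* measured 9.24, 9.60, 9.31 and 6.41 log2 CPM in Sp3+/- libraries 468-3, 685-5, 685-7 and 697-4, of which 697-4 was below every WT library and the others lay within the WT range. *Mfap4* measured 4.07, 4.58, 4.19 and 2.17 in those libraries, again lowest in 697-4. The 95% interval of the difference from WT was -2.50 to 1.54 log2 units for *Eln* and -2.68 to 0.81 for *Mfap4*, so sizeable changes in either direction stay within it. It was narrower at -0.28 to 0.16 for *Efemp2*, -0.74 to 0.61 for *Fbn1* and -0.67 to 0.58 for *Fbln2*.

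The microfibril genes showed the same low library. *Fbn1* measured 10.65, 10.74, 10.98 and 10.16 log2 CPM in Sp3+/- libraries 468-3, 685-5, 685-7 and 697-4, and *Fbn2* measured 6.94, 7.03, 7.04 and 4.97. All of these values lay within the WT range of each gene. In the same order, the fibulin *Fbln2* measured 12.40, 12.13, 12.28 and 11.64 and *Fbln5* 9.89, 9.93, 10.03 and 9.14. *Fbln1* measured 4.41, 4.12, 3.95 and 2.29. Library 697-4 was lowest in each of these genes and fell just below the WT range in *Fbln2* and *Fbln5*.

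The other 3 genes were more even in Sp3+/- cells. *Efemp2* measured 8.22, 8.08, 7.91 and 7.79 log2 CPM, *Efemp1* 8.36, 8.44, 7.98 and 8.06, and *Mfap5* 5.12, 5.24, 5.29 and 5.33 in libraries 468-3, 685-5, 685-7 and 697-4. The SD over these 4 libraries was 0.19 for *Efemp2*, 0.22 for *Efemp1* and 0.09 for *Mfap5*, against 1.49 for *Eln* and 1.08 for *Mfap4*. In the 3 Sp3-/- libraries it was 0.05 for *Efemp2* but 0.58 for *Efemp1* and 0.81 for *Mfap5*, so the evenness of *Efemp2* held in each genotype (0.11 in WT).

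Against Sp3+/- cells, 6 of the 10 genes were lower in Sp3-/- cells and none was higher. Of all 14130 genes tested in that comparison, 25.5% were called and 12.5% were called lower. *Eln* (log2 fold change -4.57, SE 1.20, adjusted p = 0.0218, edgeR) and *Mfap4* (-3.41, SE 1.01, adjusted p = 0.0337) had the largest differences. *Fbn1* (-1.65, SE 0.35, adjusted p = 0.00991), *Fbln5* (-1.49, SE 0.36, adjusted p = 0.0168), *Fbln2* (-1.15, SE 0.31, adjusted p = 0.0249) and *Efemp2* (-0.72, SE 0.11, adjusted p = 0.00278) were smaller, by the same edgeR test. The 6 did not overlap between genotypes, against 18% of all genes that were lower without overlap. *Fbn2* (-1.99, adjusted p = 0.0708), *Fbln1* (-1.90, adjusted p = 0.0675), *Mfap5* (-0.62, adjusted p = 0.167) and *Efemp1* (-0.01, adjusted p = 0.983) were not called by edgeR. This comparison uses the same Sp3-/- libraries as the one with WT, so the pair is not independent. With the suffix in the model only *Efemp2* was called (-0.53, adjusted p = 0.0243, edgeR), against 5.4% of all genes and 3.57% with a lower level. Without Sp3-/- library 697-2 the count of 6 dropped to 3 and the share of all genes called to 10.6%. *Mfap4* was not called by limma-voom here either (-3.40, adjusted p = 0.19). The plot of fold changes sets the comparisons side by side.

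**Figure D3:**
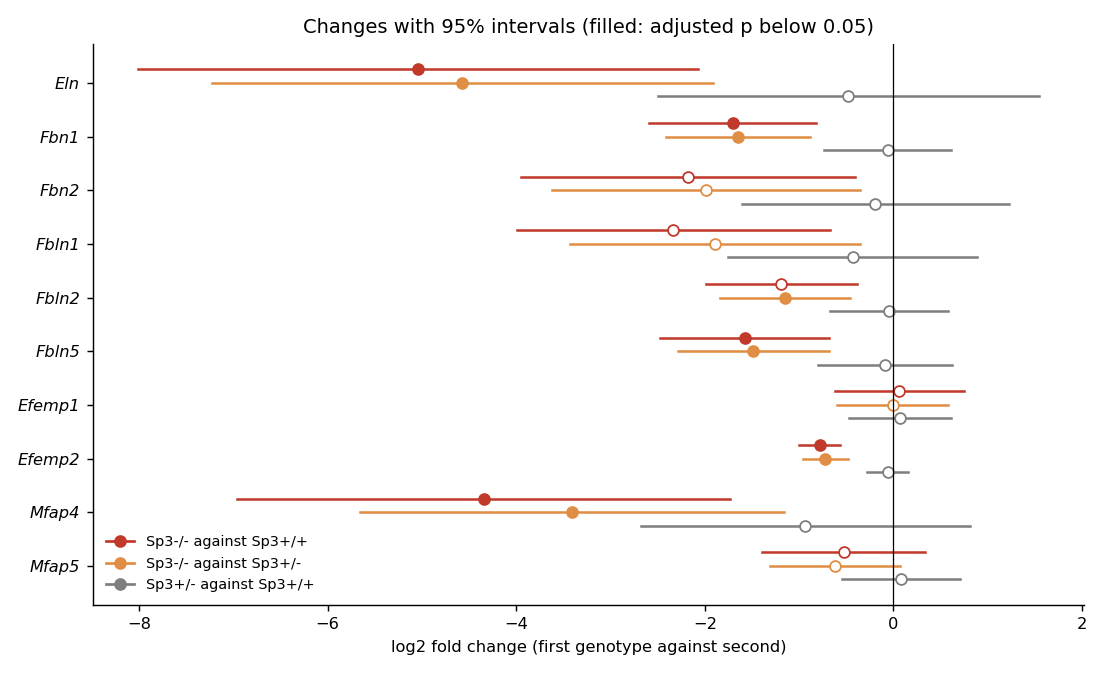
Log2 fold changes of the 10 genes in the 3 comparisons of genotypes, with 95% intervals from edgeR. Filled points had an adjusted p below 0.05. All Sp3+/- against WT intervals include 0, and the widest intervals are those of *Eln* and *Mfap4*.

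Libraries without a suffix differed within the genotypes that carry *Sp3*. WT library 468-4 and Sp3+/- library 697-4 were both below all 6 suffixed libraries in 7 of the 10 genes, namely *Eln*, *Fbn1*, *Fbn2*, *Fbln1*, *Fbln2*, *Fbln5* and *Mfap4*, against 18.5% of all genes. In *Fbn2* the pair measured 4.54 and 4.97 log2 CPM where the suffixed libraries measured 6.79 to 7.55. In *Fbln1* it measured 2.17 and 2.29 against 3.95 to 5.00. The term for suffix 3 against none was above 0 and called for *Fbn2* (SE 0.51, adjusted p = 0.0338, edgeR), *Fbln1* (2.14, SE 0.46, adjusted p = 0.0337) and *Fbn1* (1.07, SE 0.22, adjusted p = 0.031), against 6.36% of all genes in either direction and 2.51% with a term above 0.

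Among the 5 libraries without a suffix, 6 genes were still lower in all 3 Sp3-/- libraries than in 468-4 and 697-4, against 22% of all genes. These were *Eln*, at 0.37 to 5.33 against 6.41 and 7.04 log2 CPM, *Fbn1*, *Fbln2*, *Fbln5*, *Efemp2* and *Mfap4*. For *Efemp2* the values were 7.26 to 7.34 against 7.79 and 7.97. For *Fbn2* and *Fbln1* both Sp3-carrying libraries lay inside the Sp3-/- range, which was 3.08 to 5.23 and 0.58 to 2.68. The plot with the covariate shows how far each change moved.

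**Figure D4:**
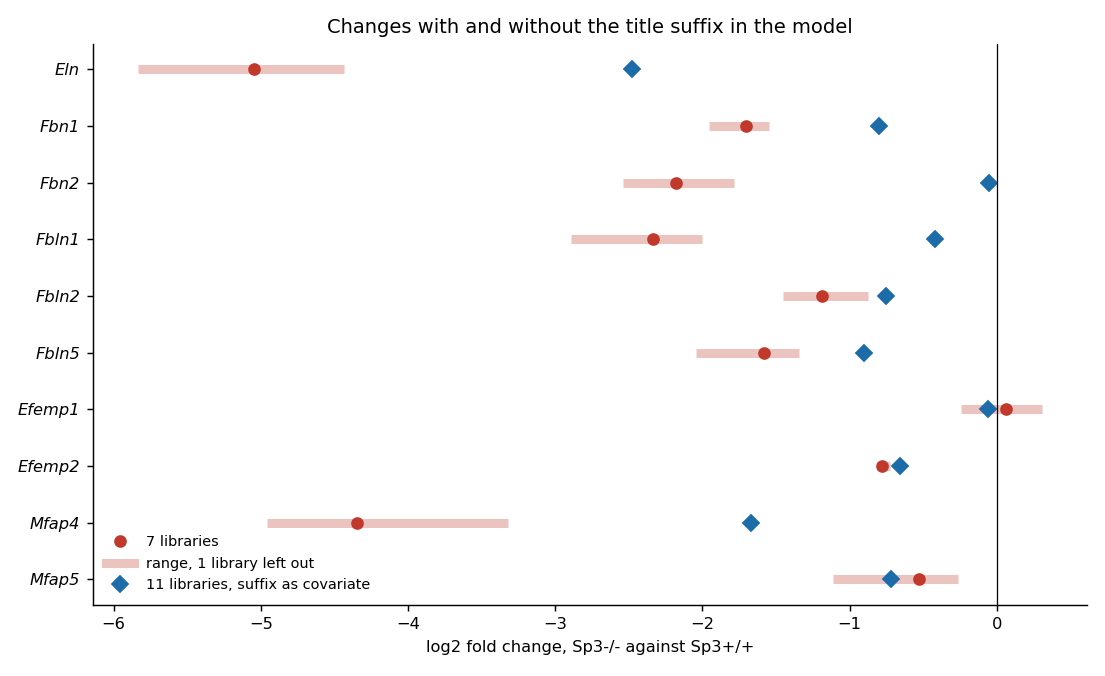
Log2 fold change in Sp3-/- against WT cells for each gene. Red circles use the 7 libraries of these genotypes, pale bars span the 7 fits that each left out a library, and blue diamonds are from all 11 libraries with the title suffix as a covariate. *Efemp2* moves from -0.78 to -0.66 with the covariate, while *Fbn2* moves from -2.18 to -0.05.

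Markers of other cell types also differed between libraries. The summed level of 9 macrophage markers, all detected in every library, was 359 to 873 CPM in the 6 suffixed libraries. It was 3195 CPM in 468-4, 3025 CPM in 697-4 and 3049, 11139 and 10553 CPM in Sp3-/- libraries 685-1, 697-2 and 697-5. Macrophage sums were thus higher in every library without a suffix. In Sp3-/- against WT cells edgeR called 4 of these 9 markers higher, beside 8.76% of all genes, and none lower. With the suffix covariate 0 of 9 were called. Against Sp3+/- cells 9 of 9 were called higher, beside 13% of all genes, and 0 with the covariate. In 685-1, 468-4 and 697-4, whose macrophage sums were close, *Eln* measured 4.54, 7.04 and 6.41 log2 CPM and *Efemp2* 7.34, 7.97 and 7.79. There *Fbn2* measured 5.23, 4.54 and 4.97 and *Fbln1* 2.68, 2.17 and 2.29, and both were highest in 685-1, the single Sp3-/- library among them. *Eln*, *Efemp2*, *Fbn1*, *Fbln2*, *Fbln5*, *Mfap4* and *Mfap5* were lowest in 685-1. *Efemp1* measured 8.22 there, between 8.06 in 697-4 and 8.48 in 468-4. Other marker sums were less close in 685-1, 468-4 and 697-4. Mesothelial markers summed to 5587, 1660 and 1692 CPM and mesenchymal markers to 18892, 13054 and 14901 CPM, in that order. Epithelial markers summed to 156, 31.5 and 25.9 CPM and smooth muscle markers to 5178, 13288 and 21412 CPM.

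The summed level of 7 smooth muscle markers was 11952 to 26094 CPM in WT and 15000 to 21412 CPM in Sp3+/- libraries, including 13288 in 468-4 and 21412 in 697-4. In Sp3-/- libraries it was 4172 to 5178 CPM. Against WT cells 5 of the 7 were called lower, beside 9.77% of all genes, and 5 with the suffix covariate, beside 5.8%. Mesothelial markers summed to 686 to 1660 CPM in WT, 1342 to 2374 in Sp3+/- and 2073 to 5587 in Sp3-/- libraries, so the latter groups overlapped. Of the 5 tested, 3 were called higher in Sp3-/- against WT cells, beside 8.76% of all genes, and 1 with the suffix covariate. Epithelial markers were low, at 18.5 to 36.5 CPM in libraries that carry *Sp3*, and above that range in all 3 Sp3-/- libraries, up to 156 CPM. Of the 7 tested, 3 were called higher, beside the same 8.76%, and 1 with the suffix covariate. Of 9 endothelial markers tested, 1 was called lower and 2 higher against WT cells, and none with the suffix covariate. Of the 8 mesenchymal markers 2 were called lower, beside 9.77% of all genes. With the suffix covariate 2 were lower and 1 higher, where 9.41% of all genes were called in either direction. The part of these cell types in the results was not tested. The plot of shares and macrophage markers gives the value of each library.

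**Figure D5:**
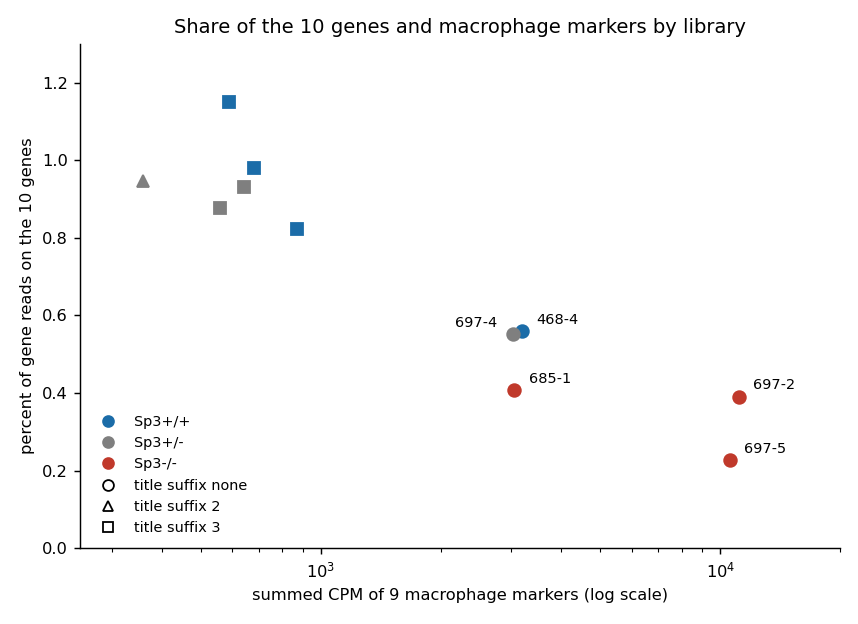
Share of gene reads on the 10 genes (percent) against the summed CPM of 9 macrophage markers (log axis), 1 point per library, coloured by genotype with the symbol giving the title suffix. The suffixed libraries lie at 359 to 873 CPM and 0.822% to 1.15%, and 697-5 is lowest in share at 0.227%.

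Ratios of counts within a library do not depend on scaling between libraries. The log2 ratio of *Eln* to *Fbn1* was -2.50, -0.88, -0.58 and -2.55 in WT libraries 468-4, 685-2, 697-1 and 697-3 and -4.71, -3.76 and -8.30 in Sp3-/- libraries 685-1, 697-2 and 697-5. The genotypes did not overlap, and the means differed by -3.96 (exact 2-sided permutation p = 0.0571, the smallest that 4 against 3 libraries allow, adjusted p = 0.171 over 9 ratio tests). *Eln* thus stood further below WT than *Fbn1* did in every Sp3-/- library, at a p that this design cannot take below the threshold.

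The ratio of *Fbln5* to *Eln* was higher by 3.96 log2 units in Sp3-/- than in WT libraries, also without overlap (exact permutation p = 0.0571, adjusted p = 0.171). The ratio of *Fbn2* to *Fbn1* differed by -0.50 and overlapped (exact permutation p = 0.457, adjusted p = 0.686). In Sp3+/- against WT libraries the 3 differences were -0.37, 0.27 and -0.07 for *Eln* to *Fbn1*, *Fbln5* to *Eln* and *Fbn2* to *Fbn1*, each with overlap and exact permutation p of 0.686, 0.714 and 0.857. Against Sp3+/- libraries the Sp3-/- means differed by -3.59, 3.68 and -0.43 in the same order, with exact permutation p of 0.0571, 0.114 and 0.343. The latter ratios overlapped, and *Eln* to *Fbn1* barely did not. It was -3.757 in Sp3-/- library 697-2 and -3.754 in Sp3+/- library 697-4, which has no suffix in its title. *Fbln5* to *Eln* was 2.66 in 697-2 and 2.73 in 697-4.

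Across the 11 libraries *Eln* varied with 7 of the other genes, with Pearson correlations of log2 CPM from 0.89 (*Efemp2*) to 0.99 (*Fbln2*). The correlation was -0.24 with *Efemp1* and 0.17 with *Mfap5*. These points share the genotype and suffix groups and are given as a description. In the 8 libraries that carry *Sp3* the correlation of *Eln* stayed at 0.98 with *Fbln5*, 0.96 with *Mfap4* and 0.95 with *Fbn2*, and was 0.76 with *Efemp2* and -0.77 with *Mfap5*. Correlation of the genes with log2 reads on genes ran from -0.48 (*Efemp1*) to 0.30 (*Fbln2*). Among 11194 other genes with a mean above 2 log2 CPM, those most like *Eln* were *Rpl41* (0.990), *Ccdc8* (0.985), *Cd276* (0.983), *Cdkn2d* (0.983) and *Ogn* (0.981). *Rpl41* is a ribosomal protein gene with near-identical processed copies, so its counts are uncertain. *Ogn*, which encodes the matrix proteoglycan osteoglycin, averaged 7.63 log2 CPM in WT, 7.52 in Sp3+/- and 4.86 in Sp3-/- cells.

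Other genes of elastic fiber assembly were counted from lists. Of 52 tested, edgeR called 17 lower and 4 higher in Sp3-/- against WT cells, beside 9.77% and 8.76% of all genes, with a median log2 fold change of -0.57. With the suffix covariate 10 were lower, beside 5.8% of all genes, and 1 higher. Against Sp3+/- cells 25 were lower and 7 higher, beside 12.5% and 13% of all genes, and none was called in Sp3+/- against WT cells.

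The values given by list from here on are those of Sp3-/- against WT cells unless stated. In that comparison 9.77% of all genes were called lower and 8.76% higher, and 5.8% were called lower with the suffix covariate. Cross-linking enzymes and their copper supply had 4 of 6 genes lower and 1 higher. The lysyl oxidase family members *Loxl4* (log2 fold change -2.33, SE 0.26, adjusted p = 0.00726, edgeR), *Loxl2* (-1.66, SE 0.27, adjusted p = 0.013) and *Loxl3* (-1.58, SE 0.19, adjusted p = 0.00764) were lowered most, and all 3 were also called with the suffix covariate. *Lox* itself was close to the threshold (-0.77, SE 0.22, adjusted p = 0.0495, edgeR), and with the covariate its adjusted p was 0.195. The copper transporter *Atp7a*, which loads lysyl oxidases, was the gene that rose (0.61, SE 0.13, adjusted p = 0.0241, edgeR, and 0.0753 with the covariate).

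Of the 4 genes of the latent TGF-beta binding protein family, 3 were lower: *Ltbp1* (-2.12, adjusted p = 0.0192, edgeR), *Ltbp2* (-1.51, adjusted p = 0.0246) and *Ltbp3* (-0.50, adjusted p = 0.0347). With the suffix in the model *Ltbp1* was called (-0.91, adjusted p = 0.0161, edgeR), and *Ltbp2* (adjusted p = 0.0526) and *Ltbp3* (adjusted p = 0.0962) were not. Of the 3 TGF-beta ligands *Tgfb2* was lower (-1.68, SE 0.14, adjusted p = 0.00611, edgeR), and it was -1.57 with the covariate. Among 6 other microfibril and elastic fiber glycoproteins, *Hmcn1*, a hemicentin (-2.93, adjusted p = 0.00887, edgeR), *Fbln7* (-2.07, adjusted p = 0.0195) and *Emilin1*, which lies between elastin and microfibrils (-1.42, adjusted p = 0.0232), were lower. With the covariate *Hmcn1* (adjusted p = 0.0103, edgeR) and *Fbln7* (adjusted p = 0.0311) were called and *Emilin1* (adjusted p = 0.121) was not. *Fbln7* was rare in every genotype, at 0.79 log2 CPM in WT.

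Of 6 ADAMTS and ADAMTSL proteins of microfibrils, *Adamts6* (-1.81, adjusted p = 0.0166, edgeR) and *Adamtsl4* (-0.94, adjusted p = 0.0324) were lower, and neither was called with the suffix covariate. Among 7 integrin subunits only *Itga8*, the integrin chain alpha 8, was called against WT cells (-2.81, SE 0.32, adjusted p = 0.00744, edgeR). It was -2.06 with the covariate. Against Sp3+/- cells 4 of the 7 were called lower, beside 12.5% of all genes. In the list of secretion and maturation genes 2 were lower and 2 higher of 9. *Fkbp10* (-0.93, adjusted p = 0.0297, edgeR), a collagen and tropoelastin chaperone, and *Slc2a10* (-0.86, adjusted p = 0.01), of the glucose transporter family, were lower. *Neu1*, the sialidase of the elastin receptor complex, was higher (0.90, adjusted p = 0.00681, edgeR), as was its partner *Ctsa* (0.72, adjusted p = 0.0255). With the covariate *Slc2a10* (adjusted p = 0.012, edgeR) and *Neu1* (adjusted p = 0.007) were called, and *Fkbp10* (adjusted p = 0.0842) and *Ctsa* (adjusted p = 0.065) were not.

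Against Sp3+/- cells 1 of 6 elastin-degrading proteases was called higher, beside 13% of all genes. None of the 6 was called against WT cells. The largest value among them was that of *Ctss*, a cathepsin of macrophages, at a log2 fold change of 2.33 (SE 0.89, adjusted p = 0.103, edgeR), beside the macrophage marker sums given above. Of 5 binding partners in the matrix, the small proteoglycans moved in opposite directions, with *Bgn* (biglycan) lower (-1.41, adjusted p = 0.0132, edgeR) and *Dcn* (decorin) higher (1.32, adjusted p = 0.0266). With the covariate *Bgn* was called (adjusted p = 0.0183, edgeR) and *Dcn* was not (adjusted p = 0.059).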

How the data were processed

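The deposited files hold whole-number counts of reads per gene symbol for each library, made by the authors with htseq-count from 50 bp single end reads aligned to mm10 with STAR 2.4.5a after FastQC 0.10.1, per the submitters' processing notes and methods. They are not normalized. Neither the gene annotation used nor whether counting was stranded is given in the sources used here. The tallies outside genes (38.4% to 40.9% of each library) were left out. Each library gives a single value per gene, so with 3 or 4 libraries per genotype their number limits the precision.

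Genotypes were taken from the labels. Genes that exceeded 1 CPM in some library of the comparison entered edgeR 4.0.16 (TMM, estimateDisp, robust glmQLFit, glmQLFTest) in R 4.3.3 and were called at an adjusted p below 0.05 (Benjamini-Hochberg over all genes). Sp3-/- against WT used 7 libraries, and comparisons with Sp3+/- used all 11. Standard errors follow from the test statistic. Ratios (0.5 added to each count) were compared by exact 2-sided permutation tests over libraries. No 2 libraries of a genotype agreed within sampling noise (lowest chi-square per degree of freedom 16.6).

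The 10 genes and all lists were chosen with earlier results of these data known. Named beyond the 10 were at most 3 called genes of a list with the largest change, and *Lox*, *Atp7a*, *Ctsa* and *Ctss*, picked after their values were seen. Genes like *Eln* were the 5 with the highest correlation. Levels per length used exon lengths of GENCODE on GRCm39, which is not the annotation behind the counts, while coordinates and promoters are those of RefSeq on GRCm38.p6. Alternatives were DESeq2 1.42.0, limma-voom (limma 3.58.1) plain or with libraries that share their first label number correlated, that number as a block, other scalings and filters, the suffix as a covariate, only libraries without a suffix, other sets of libraries, each library left out, and 5 added to counts in ratios.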

Additional observations from a re-analysis of the deposited data

Results flagged for a closer look

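In each genotype with 4 libraries, the gap between the highest or lowest library and its nearest neighbour was compared with the whole range (above Dixon's 95% critical value), for the 10 genes and 3 ratios. Of 26 such groups 5 passed, where chance passes about 1 in 20, and the genes and ratios share libraries. All 5 were Sp3+/- library 697-4, the only Sp3+/- library without a suffix in its title. It measured 6.41 log2 CPM for *Eln* where its nearest neighbour measured 9.24 (gap over range 0.887), 4.97 for *Fbn2* beside 6.94 (0.955) and 9.14 for *Fbln5* beside 9.89 (0.846). Its log2 ratio of *Fbn2* to *Fbn1* was -5.20 beside -3.94 (0.843), and its ratio of *Fbln5* to *Eln* was 2.73 beside 0.72 (0.835). The summed macrophage markers of this library were 3025 CPM, against 359 to 644 CPM in the other Sp3+/- libraries, and their part in these values was not tested.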

How the results depend on the processing

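The count of genes called in Sp3-/- against WT (5 of 10) became 8 with DESeq2 (30.7% of all genes called), 8 with the first label number as a block (28.7%), 1 with the suffix covariate (9.41%) and 0 with only libraries without a suffix, where edgeR called 0 of 13752 genes (1337 at an unadjusted p below 0.05) and each WT value was the single library 468-4, assumed to vary like the others. It was 4 to 7 under the other alternatives (11% to 28.1% of all genes called), where limma-voom called *Fbln2* and not *Mfap4*. With a library left out it was 1 to 8 (2.01% to 29.9%). Against Sp3+/- cells (6 of 10) the count became 3 with the block (20.9% of all genes), where *Eln* (adjusted p = 0.0551), *Mfap4* (0.0528) and *Fbln2* (0.0624) lost their edgeR call. Without suffixed libraries the only Sp3+/- library was 697-4, and the log2 fold change of *Efemp2* was -0.52. The count was 1 with the suffix covariate (5.4%) and 3 to 8 with a library left out (10.6% to 26.3%), 3 without 697-2. In Sp3+/- against WT it was 0 in all 19 alternatives. *Efemp2* was called in 17 of 18 alternatives in both comparisons with Sp3-/- cells, all but that of libraries without a suffix, and *Efemp1* in none of them. The cause of these moves was not tested.

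Directions turned only for values that were not called. *Efemp1* in Sp3-/- against WT was -0.00397 with upper quartile scaling, -0.0626 with the suffix covariate, -0.27 without suffixed libraries and -0.24 to 0.31 with a library left out. Against Sp3+/- it was 0.00719 with DESeq2, 0.16 with the block, 0.14 without suffixed libraries and -0.31 to 0.24 with a library left out. *Fbn2* in Sp3-/- against WT was 0.16 without suffixed libraries. In Sp3+/- against WT, *Mfap4* was 0.0715 with limma-voom and 0.0774 with the correlation, and *Fbn1* 0.11 with the suffix covariate. Without suffixed libraries *Fbn1* was 0.63, *Fbn2* 0.43, *Fbln1* 0.12, *Efemp1* -0.41, *Mfap4* 0.38 and *Mfap5* -0.10 there. With a library left out that comparison gave -0.81 to 0.13 for *Eln*, -0.30 to 0.0929 for *Fbn1*, -0.52 to 0.11 for *Fbn2*, -0.16 to 0.0881 for *Fbln2*, -0.25 to 0.12 for *Fbln5*, -0.0573 to 0.20 for *Efemp1*, -0.14 to 0.00402 for *Efemp2*, -1.30 to 0.12 for *Mfap4* and -0.00446 to 0.19 for *Mfap5*. The ratio of *Fbn2* to *Fbn1* without suffixed libraries was 0.44 against WT and 0.63 against Sp3+/-. With a library left out it was -0.81 to 0.0093, -0.78 to 0.0802 and, in Sp3+/- against WT, -0.38 to 0.28, where *Eln* to *Fbn1* was -0.68 to 0.22 and *Fbln5* to *Eln* -0.27 to 0.72.

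Low counts limit the precision of *Eln*, *Fbln1* and *Mfap4* in Sp3-/- library 697-5, with 12, 14 and 7 reads. The lengths used for levels per kb, the overlap of *Eln* and *Fbn2* with other genes, and the near confounding of genotype and suffix limit the rest.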
